A study of Macaca mulatta with 51 samples.

Results

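The activin, follistatin and myostatin axis is a group of secreted ligands of the TGF-beta superfamily, the extracellular proteins that bind them and their receptors. Its 10 genes were taken by symbol from the gene column of the count table: the ligand subunits INHBA and INHBB, the ligand MSTN (myostatin), the follistatin family FST, FSTL1 and FSTL3, the type I receptors ACVR1B and ACVR1C and the type II receptors ACVR2A and ACVR2B. A row of counts was matched for 7 of the 10, out of 16033 genes in all, whereas INHBB, ACVR2A and ACVR2B were not analysed here. The INHBA subunit forms activin A as a homodimer, and activins and myostatin bind type II receptors that recruit type I receptors and lead to phosphorylation of SMAD2 and SMAD3. Follistatin and FSTL3 bind and neutralize activins and myostatin outside the cell. In muscle the axis is best known for the restraint of fibre growth by myostatin, and in fat ACVR1C is known as an adipocyte receptor that restrains lipolysis.

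Gene expression was measured as mRNA in subcutaneous abdominal adipose tissue (AT) and gastrocnemius skeletal muscle (SM) of obese, non-diabetic rhesus macaques (Macaca mulatta), males and ovariectomized females of 11 to 22 years on a long-term high-fat, high-sucrose diet. Punch biopsies, which hold a mixture of cell types, were taken from each animal before treatment (pre-treatment), after 12 weeks of daily subcutaneous native human FGF21 in doses rising from 10 to 1000 ug/kg/day (post-treatment), and 16 weeks after the last dose (washout). According to the paper, the animals lost body weight during treatment and returned to baseline weight during washout. Its authors could not separate effects of FGF21 from responses to weight loss, and neither can the time points compared here. All groups share the species and the diet, no animals without FGF21 were among the samples, and 1 animal was held below the top dose. AT of 10 animals gave 10 libraries pre-treatment, 9 post-treatment and 8 at washout, and SM of 8 animals gave 6, 8 and 7.

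Each library held between 14455195 and 23940980 counts, the median being 18578869. Levels are given as counts scaled to a library total of 1000000 (CPM) after TMM normalization within a tissue, which corrects for library size and composition but not for gene length, so that levels are compared between libraries and not between genes. Comparisons between the tissues used TMM over the libraries of both tissues instead. Their differences therefore do not follow from the CPM printed for each tissue. A gene entered the test of a tissue if 10% or more of that tissue's libraries had at least 0.5 CPM. It was called differentially expressed (DE) where the adjusted p was below 0.05 and the log2 fold change exceeded 0.26 in size. Adjusted p values are from edgeR's quasi-likelihood test with time point and animal in the model and Benjamini-Hochberg adjustment over all genes of the tissue, and fold changes carry their standard error (SE). Muscle fibre markers summed to between 64919 and 306430 CPM in SM and to between 69.8 and 197 CPM in AT. The adipocyte markers with a row (4 of 8, ADIPOQ, PLIN1, LEP and GPD1) summed to between 2486 and 12741 CPM in AT and to between 256 and 1696 CPM in SM. In SM most of that sum was GPD1, an enzyme that muscle also expresses, with a mean of 968 CPM, whereas ADIPOQ, PLIN1 and LEP had means of 20.5, 20.6 and 11.2 CPM. The satellite cell markers MYF5 and CALCR were at 0 in every AT library. In SM the post-treatment library of animal 21189 stood apart, with the lowest muscle fibre sum of all SM libraries (64919 CPM), and the post-treatment libraries of animals 21866 and 24849 followed at 117431 and 121231 CPM.

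INHBA fell in AT post-treatment and rose at washout, in every animal with both libraries. Its level pre-treatment ranged from 7.31 to 24.5 CPM with a median of 15.7 (mean 15.1 ± 5.68 CPM, SD, n = 10). Post-treatment it ranged from 3.55 to 13.8 CPM with a median of 4.87 (mean 6.10 ± 3.45, n = 9), and at washout from 9.08 to 32.8 CPM with a median of 14.3 (mean 16 ± 7.6, n = 8). The groups overlapped, because animals 20261 and 23004 stayed at 13.8 and 9.92 CPM post-treatment while animal 26292 was at 7.31 CPM before treatment, but every animal moved the same way.

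Post-treatment compared to pre-treatment, the log2 fold change of INHBA was -1.40 ± 0.209 (SE, 95% interval -1.84 to -0.96), which is 0.379 times the earlier level, with an adjusted p of 0.000955 by edgeR and a lower level in 9 of 9 animals. The fall was smallest in animal 20261, at -0.27 on the log2 scale. At washout compared to post-treatment it was higher in 8 of 8 animals, with a log2 fold change of 1.40 ± 0.215 (2.63-fold, adjusted p = 9.99e-05 by edgeR). The pair of changes shares the post-treatment libraries and is therefore not independent. Washout and pre-treatment differed by -0.0051 ± 0.209 (95% interval -0.44 to 0.43, adjusted p = 0.989 by edgeR), higher at washout in 4 of 8 animals.

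**Figure D1:**
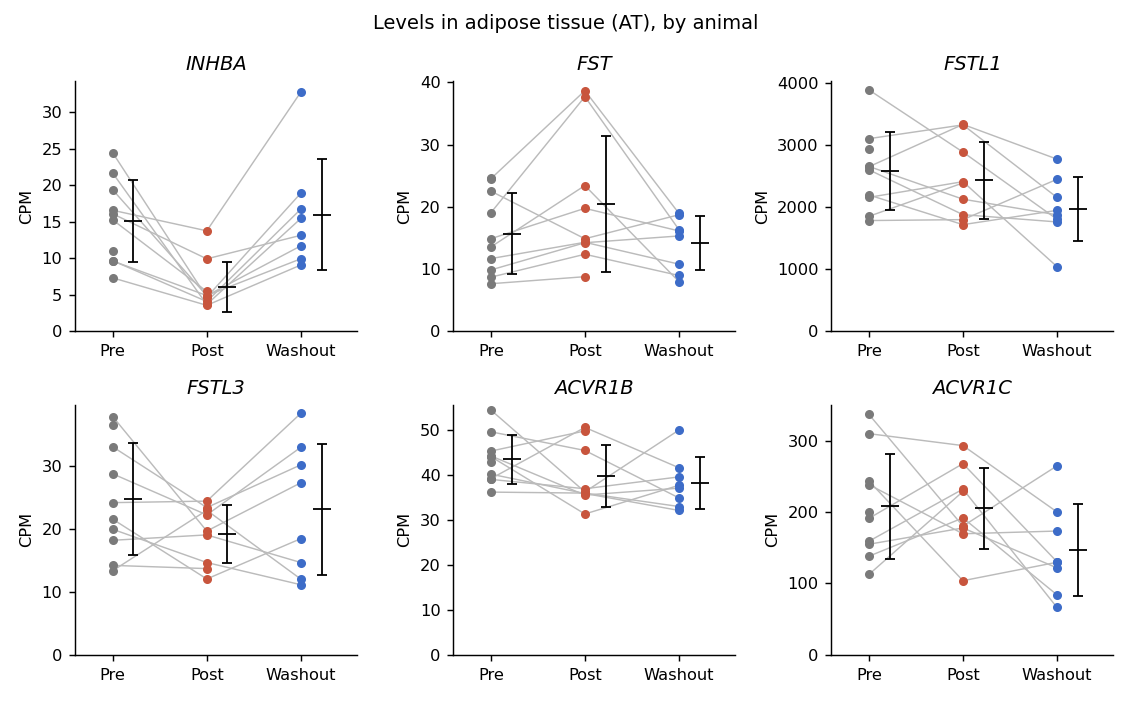
CPM after TMM normalization (y axis) of 6 genes of the axis in AT at the 3 time points (x axis); each point is 1 library, grey lines join consecutive time points of an animal, and black bars give the mean ± SD. INHBA drops in every animal post-treatment and is back between 9.08 and 32.8 CPM at washout, whereas ACVR1C is lowest at washout (mean 146 CPM). FST has its highest mean in the post-treatment group (20.4 CPM) but its highest median at washout (15.7 CPM).

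Library identifiers form 3 runs of numbers, here called series, whose meaning the labels do not give. In the 6 animals whose AT libraries from before and after treatment both belong to the last series, INHBA was lower post-treatment in 6 of 6, by a mean of -1.33 on the log2 scale, and with the series in the model the fold change was -1.36. The pre-treatment AT library of animal 20275 moved the number of DE genes by more than 1.5 times, from 2068 to 1164 without it. INHBA was at -1.31 without it (adjusted p = 0.00297 by edgeR). Over all 22 alternatives its fold change ranged from -1.54 to -1.08, and its adjusted p by edgeR, DESeq2 or limma from 9.58e-09 to 0.00856. The 22 include the reported fit without its fold change limit, where the INHBA values are unchanged. Of the AT libraries, 7 of 9 post-treatment and 4 of 8 at washout belong to the last series, so that series and time point partly overlap. At washout against post-treatment, 3 of 8 animals had both AT libraries in the last series. INHBA was higher at washout in 3 of these 3, by a mean of 1.43 on the log2 scale.

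Cell type markers moved at the same time. The 11 macrophage markers summed to between 1349 and 4943 CPM pre-treatment (median 2937), to between 3179 and 14466 post-treatment (median 6447) and to between 826 and 5088 at washout (median 1396), with 2 of 11 DE and 11 of 11 higher in estimate post-treatment. None of the 11 was at 0. Of all tested AT genes, 15.5% were DE post-treatment and 35.4% at washout against post-treatment. The 2 of 11 calls are therefore near the share of all genes. At washout against post-treatment 11 of 11 macrophage markers were DE lower (median log2 fold change -1.67), with their sum lower in 7 of 8 animals, and 4 of 7 endothelial markers were DE higher. The adipocyte sum went from a median of 9203 CPM to 5827 and 7526 CPM, with 2 of 4 markers DE lower post-treatment. Over the 27 AT libraries, which share the time points and animals, the Spearman rho of INHBA was -0.66 with the macrophage sum, -0.56 with the progenitor and matrix sum, 0.44 with the endothelial sum and 0.38 with the adipocyte sum. The macrophage sum was higher post-treatment in 8 of 9 animals and the adipocyte sum lower in 9 of 9. Animals 21189, 22130 and 20275, with the largest falls of INHBA (-2.53, -2.36 and -1.97 on the log2 scale), had macrophage sums of 4153, 1349 and 1526 CPM before and of 11200, 8027 and 14466 CPM after treatment. In animal 23004, where the macrophage sum went from 4850 to 3698 CPM, INHBA changed by -0.69. Animal 20456 had the next largest fall of INHBA (-1.47), and its macrophage sum went from 4943 to 6024 CPM. In animals 24849, 26292 and 21866 (-1.23, -1.02 and -0.96) the sums went from 3704, 3363 and 2512 to 6850, 6447 and 3179 CPM. In animal 20261, with the smallest fall (-0.27), the sum went from 2111 to 3354 CPM. In bulk tissue, fewer cells of a type and less RNA per cell cannot be told apart, and the part of cell mixture in the change of INHBA was not tested.

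**Figure D2:**
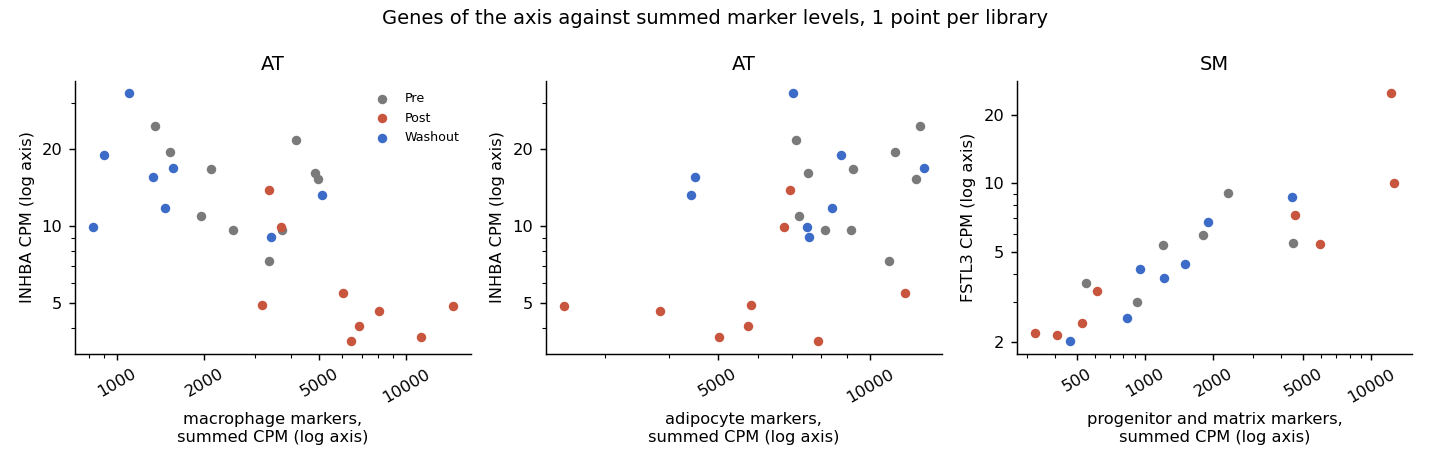
Level of a gene of the axis (y axis, CPM, log axis) against the summed level of a marker list (x axis, CPM, log axis), 1 point per library and coloured by time point: INHBA against macrophage and adipocyte markers in the 27 AT libraries, and FSTL3 against progenitor and matrix markers in the 21 SM libraries. The Spearman rho values are -0.66, 0.38 and 0.93, and most post-treatment AT libraries lie to the lower right in the macrophage panel. Those of animals 21866, 20261 and 23004 (3179, 3354 and 3698 CPM) lie within the pre-treatment macrophage range of 1349 to 4943 CPM.

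MSTN, which encodes a growth factor made mainly by muscle fibres, had 0 to 6 counts in each AT library. It did not pass the filter and was not tested there.

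FST, the activin antagonist follistatin, was DE in AT at washout compared to post-treatment, in the direction opposite to INHBA. Over the 27 AT libraries the Spearman rho between FST and INHBA was only -0.25. Its level ranged from 7.63 to 24.7 CPM pre-treatment (median 14.2), from 8.76 to 38.7 CPM post-treatment (median 14.9) and from 7.97 to 18.9 CPM at washout (median 15.7). The ranges overlapped widely, and the post-treatment mean of 20.4 ± 10.9 CPM (n = 9) was raised by animals 21866 and 21189 at 38.7 and 37.7 CPM. FST was lower at washout than post-treatment, with a log2 fold change of -0.56 ± 0.166 (adjusted p = 0.0130 by edgeR, lower in 6 of 8 animals), and was called DE. That call was lost with only the compared time points (-0.55, adjusted p = 0.0629 by edgeR) and without animal 24849 (-0.43, adjusted p = 0.0508 by edgeR). Without animal in the model it was lost too (-0.53, adjusted p = 0.163 by edgeR).

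Post-treatment compared to pre-treatment, FST was higher in 8 of 9 animals, but at 0.44 ± 0.158 it narrowly missed the threshold (adjusted p = 0.0592 by edgeR). DESeq2 gave an adjusted p of 0.0435, limma's voomWithQualityWeights one of 0.0166, and library size alone as the normalization one of 0.0487 in edgeR. Other settings moved it away from the threshold. Over all 22 alternatives the adjusted p by edgeR, DESeq2 or limma ranged from 0.0166 to 0.357, and the fold change from 0.36 to 0.56. In the 6 animals with both libraries in the last series FST was higher in 6 of 6, by a mean of 0.62. Animal 22130, where FST fell (-0.60), is not among them, because its libraries belong to different series. Washout and pre-treatment differed by -0.11 ± 0.166 (adjusted p = 0.664 by edgeR).

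FSTL1 encodes a secreted glycoprotein of the matrix that shares the follistatin domain. Its AT levels ranged from 1781 to 3885 CPM pre-treatment, from 1715 to 3329 post-treatment and from 1039 to 2770 at washout, with medians of 2623, 2387 and 1909 CPM. The washout estimate was -0.38 ± 0.163 against pre-treatment, lower in 6 of 8 animals, and was not DE (adjusted p = 0.105 by edgeR), although voomWithQualityWeights called it at -0.43 (adjusted p = 0.0324), as did edgeR without animal 21189 at -0.53 (adjusted p = 0.0268). Over all 22 alternatives the estimate ranged from -0.53 to -0.27, and the adjusted p by edgeR, DESeq2 or limma from 0.0268 to 0.251. FSTL1 followed the sum of the 12 progenitor and matrix markers over the 27 AT libraries, with a Spearman rho of 0.69.

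FSTL3, a follistatin-like antagonist of activin and myostatin, had mean AT levels of 24.8 ± 8.88, 19.1 ± 4.61 and 23.1 ± 10.4 CPM in the order of the time points. Its fold change post-treatment was -0.24 ± 0.164 (adjusted p = 0.300 by edgeR, lower in 6 of 9 animals) and at washout 0.11 ± 0.172 against post-treatment (adjusted p = 0.650 by edgeR). These differences are within the spread between animals.

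Of the type I receptors, ACVR1C was lower in AT at washout. Its level ranged from 113 to 337 CPM pre-treatment (median 195), from 104 to 293 CPM post-treatment (median 192) and from 66.4 to 265 CPM at washout (median 130). Groups overlapped, with animal 22130 the highest at washout and before treatment. Compared to post-treatment it was lower at washout in 5 of 8 animals, by a log2 fold change of -0.63 ± 0.217 (adjusted p = 0.0293 by edgeR), and was called DE. Leaving out animals 21189, 21866 or 23004 took this call away (adjusted p = 0.0812, 0.0722 and 0.0969 by edgeR), as did leaving animal out of the model (-0.49, adjusted p = 0.128 by edgeR) and using only the compared time points (-0.51, adjusted p = 0.133 by edgeR).

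Against pre-treatment, ACVR1C was lower at washout in 8 of 8 animals, by -0.58 ± 0.210, and was not DE at an adjusted p of 0.0573 by edgeR. It was DE with DESeq2 (adjusted p = 0.0316) and voomWithQualityWeights (adjusted p = 0.00885). In edgeR it was DE with only those time points (-0.65, adjusted p = 0.000625) and with the library series in the model (-0.72, adjusted p = 0.0123), and without the pre-treatment library of animal 20275 it was -0.46 (adjusted p = 0.140). Post-treatment it differed from pre-treatment by 0.05 ± 0.204 (adjusted p = 0.887 by edgeR), higher in 5 of 9 animals.

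ACVR1B, the broadly expressed activin type I receptor, was not DE in AT, with means of 43.5 ± 5.43, 39.7 ± 6.97 and 38.2 ± 5.72 CPM. Its 3 fold changes lay between -0.17 and -0.03, and the adjusted p values between 0.22 and 0.83 by edgeR.

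Of the 6 genes of the axis tested in AT, 1 was DE post-treatment compared to pre-treatment (INHBA, lower), in a comparison in which 15.5% of all tested genes were DE. At washout compared to post-treatment 3 were DE (INHBA higher, FST and ACVR1C lower), where 35.4% of all genes were. At washout compared to pre-treatment edgeR called 0 of 6, with 2 at an unadjusted p under 0.05 (FSTL1 and ACVR1C), DESeq2 called 1 and voomWithQualityWeights 2, where edgeR called 20.5% of all genes. In that comparison 4549 of all 13367 genes had an unadjusted p under 0.05 in edgeR. The settings outside leave-one-out called between 2422 and 3871 genes there. The median log2 fold changes of the 6 were -0.10, -0.17 and -0.15, beside 0.03, -0.0021 and -0.02 over all genes.

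**Figure D3:**
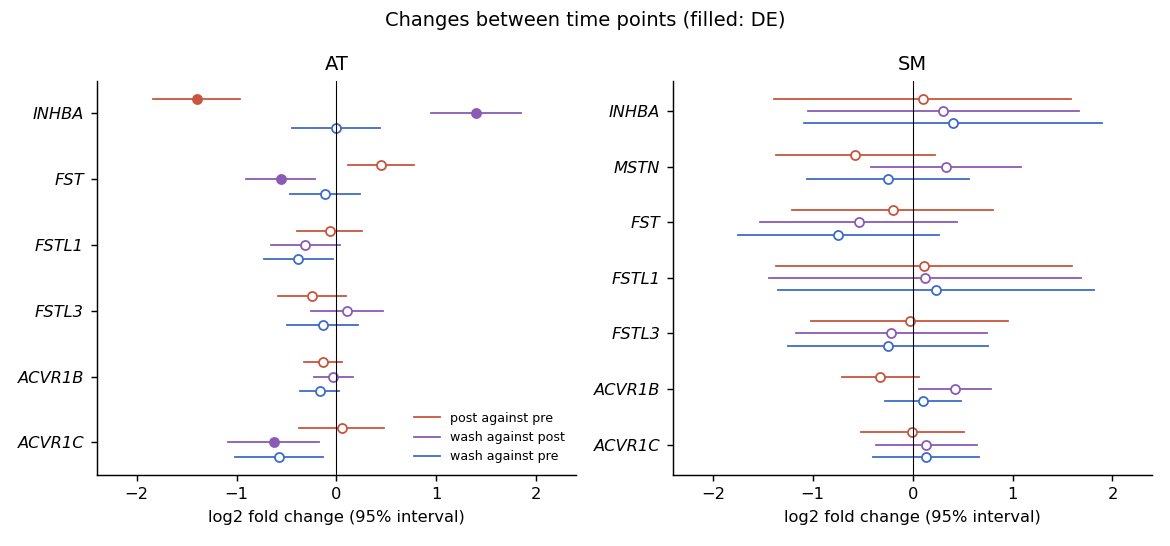
Log2 fold change (x axis) with its 95% interval for each tested gene of the axis (y axis) in AT and SM, with 1 colour per comparison of time points and filled circles for DE. INHBA in AT lies at -1.40 and 1.40 on either side of 0, FST and ACVR1C are filled only for washout against post-treatment, and no circle is filled in SM.

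In SM no gene of the axis was DE between time points. MSTN was at 12.4 to 60.7 CPM pre-treatment with a median of 25.9 (mean 29.8 ± 16.2, n = 6), at 7.12 to 36.7 CPM post-treatment with a median of 20.2 (mean 21.0 ± 12.2, n = 8) and at 12.9 to 39.7 CPM at washout with a median of 22.2 (mean 23.2 ± 8.78, n = 7). Post-treatment values split between animals, with 20275, 20456 and 21189 at 7.12 to 9.10 CPM and the others at 18.7 CPM or more. The fold change was -0.57 ± 0.371 post-treatment (95% interval -1.37 to 0.22, adjusted p = 1.0 by edgeR), with MSTN higher in 3 of 6 animals. It was 0.33 ± 0.351 at washout against post-treatment (adjusted p = 0.660 by edgeR) and -0.24 ± 0.378 against pre-treatment (adjusted p = 0.822 by edgeR). The paper cites earlier work on the same animals that found less myostatin protein post-treatment. Protein is a different measure from the mRNA given here.

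INHBA was near the lower limit of detection in SM, with 0 to 80 counts per library and group means of 0.545 ± 0.385, 0.873 ± 1.13 and 0.762 ± 0.667 CPM. The highest value, 3.27 CPM, came from the post-treatment library of animal 21189, whose FSTL3 was also the highest in SM at 24.8 CPM against at most 10.0 CPM elsewhere. FST had SM medians of 6.57, 6.68 and 2.95 CPM, and its washout estimate of -0.74 ± 0.471 against pre-treatment was not DE (adjusted p = 0.513 by edgeR, lower in 4 of 6 animals). FSTL1 ranged from 37.4 to 874 CPM post-treatment, and its 3 fold changes lay between 0.11 and 0.23 with SE of 0.691 to 0.738.

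ACVR1B in SM ranged from 10.5 to 18.2 CPM pre-treatment, from 7.9 to 18 CPM post-treatment and from 14.4 to 19.1 CPM at washout. It was higher at washout than post-treatment in 5 of 7 animals, by 0.43 ± 0.169 (unadjusted p = 0.0232 and adjusted p = 0.225, both by edgeR). With the library series in the model this became 0.80 and DE (adjusted p = 0.00942 by edgeR); 5 of the 8 post-treatment SM libraries belong to the first series and 6 of the 7 washout libraries to the last, so that series and time point overlap. ACVR1C had SM means of 10.9 ± 3.72, 10.4 ± 6.41 and 11.2 ± 3.68 CPM, and its 3 fold changes lay between -0.0028 and 0.14.

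**Figure D4:**
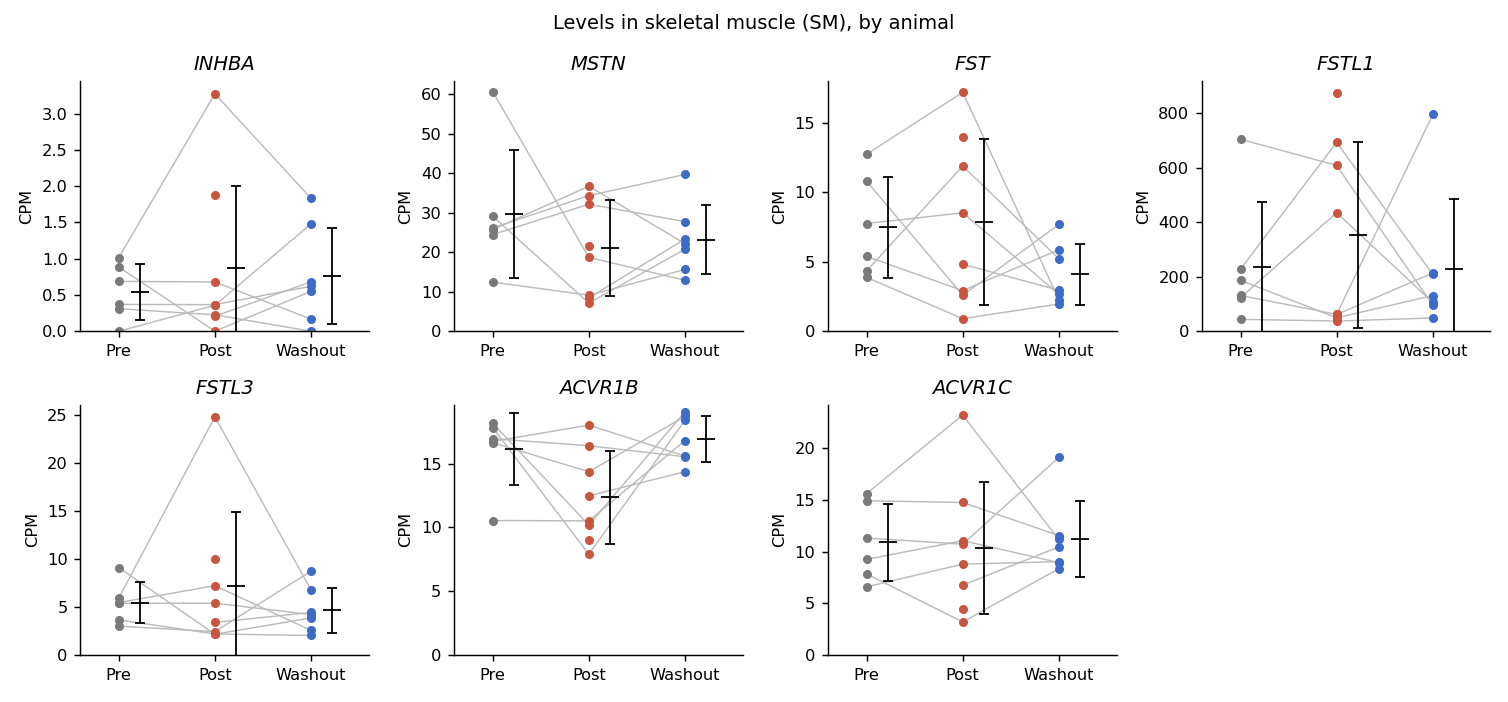
CPM after TMM normalization (y axis) of 7 genes of the axis in SM at the 3 time points (x axis); each point is 1 library, grey lines join consecutive time points of an animal, and black bars give the mean ± SD, ended at 0 where the SD exceeds the mean. Time points overlap for every gene, and single libraries reach 3.27 CPM for INHBA and 24.8 CPM for FSTL3.

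Of the 7 genes, edgeR called 0 in each of the 3 SM comparisons, in which 0%, 0.19% and 0.0634% of all tested genes were DE. At an unadjusted p under 0.05 there were 0 post-treatment, 1 at washout against post-treatment (ACVR1B) and 0 at washout against pre-treatment, and neither DESeq2 nor voomWithQualityWeights called any of the 7. Over all genes, 0 of 12617 were DE post-treatment in SM by edgeR, DESeq2 and voomWithQualityWeights alike, with 410 at an unadjusted p under 0.05 in edgeR. At washout the number under that unadjusted p was 2181 against post-treatment and 1691 against pre-treatment.

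In SM the ligand subunit and the follistatin family varied together across libraries. Over the 21 SM libraries, which share animals and time points, the Spearman rho of INHBA was 0.92 with FSTL3, 0.79 with FSTL1 and 0.55 with FST. The same genes followed the summed progenitor and matrix markers, with a rho of 0.82 for INHBA, 0.83 for FST, 0.95 for FSTL1 and 0.93 for FSTL3, and ran against the muscle fibre sum, with a rho of -0.68, -0.91, -0.83 and -0.88. MSTN had a rho of -0.36 with the matrix sum and of 0.68 with ACVR1C. The matrix sum ranged from 325 to 12635 CPM post-treatment in SM (median 2596), from 550 to 4512 pre-treatment and from 466 to 4475 at washout, and its part in the SM values was not tested.

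Before treatment, levels of the axis differed between the tissues of the same animals. In a joint fit of 12322 genes tested in both tissues, 5 of 6 genes were DE and lower in SM, in a comparison in which 77.8% of all genes were DE. The log2 difference, SM minus AT, was -4.02 ± 0.580 for INHBA, -3.49 ± 0.305 for ACVR1C, -2.97 ± 0.601 for FSTL1, -1.40 ± 0.348 for FSTL3 and -0.69 ± 0.152 for ACVR1B. These differences, from TMM over both tissues, depend on the normalization and other settings. That of ACVR1B ranged from -1.41 to -0.54 over 16 alternatives. INHBA, ACVR1C, FSTL1, FSTL3 and ACVR1B were each lower in SM in 6 of 6 animals sampled in both tissues. FST did not pass the threshold at -0.44 ± 0.372 (adjusted p = 0.280 by edgeR), lower in SM in 3 of 6 animals, and was DE at -1.15 with library size alone as the normalization. MSTN was not in this fit; within animals its log2 CPM was higher in SM in 6 of 6, by a mean of 7.96 ± 1.05 (SD), a difference that depends on the prior count of 2 because AT libraries held 0 to 6 counts.

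**Figure D5:**
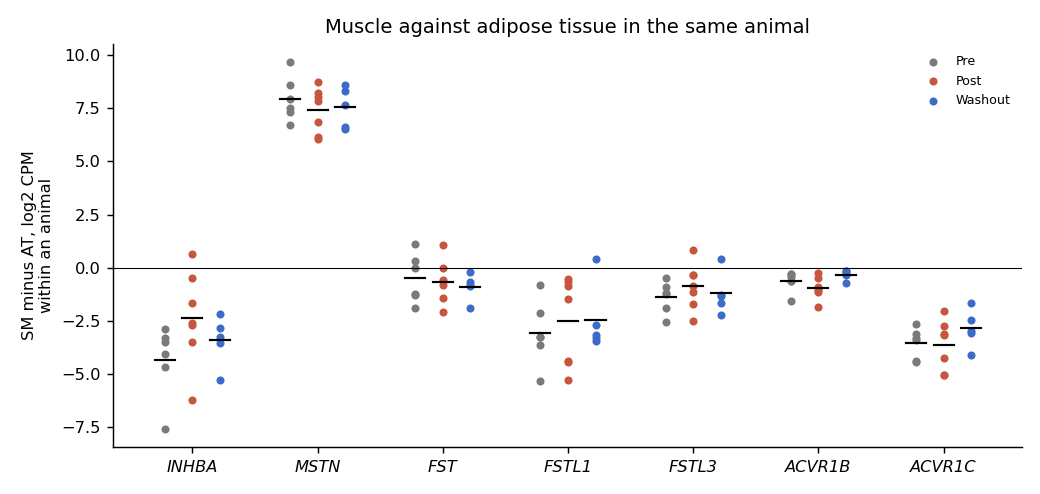
Difference between SM and AT of the same animal in log2 CPM (y axis) for 7 genes of the axis (x axis), 1 point per animal sampled in both tissues, coloured by time point, with black lines at the means. CPM here are after TMM normalization over both tissues. MSTN lies at a pre-treatment mean of 7.96 above 0, INHBA at -4.33 and ACVR1C at -3.54, and FST lies below 0 in 3 of 6 animals pre-treatment, 6 of 7 post-treatment and 5 of 5 at washout.

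Whether the time course differed between tissues was tested as an interaction. Post-treatment, the change of INHBA in SM minus that in AT was 1.42 ± 0.694 (unadjusted p = 0.0495 and adjusted p = 0.470 by edgeR), so that a difference from the AT fall was not shown, with SM counts near 0. At washout against post-treatment the differences were 0.47 ± 0.191 for ACVR1B (adjusted p = 0.0780 by edgeR) and 0.78 ± 0.329 for ACVR1C (adjusted p = 0.0860 by edgeR). The 3 interactions gave edgeR calls for 0 of 6 genes each, beside 0.0487%, 22.7% and 17.5% of all genes, with 1, 2 and 1 at an unadjusted p under 0.05. Of all 12322 genes, 1306, 4293 and 3702 were under that unadjusted p. DESeq2 called 0 of 6 in each, and voomWithQualityWeights 0, 1 and 2 (ACVR1C at washout against both time points, and ACVR1B against pre-treatment). For washout against pre-treatment voomWithQualityWeights called 3708 of all 12322 genes.

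Around the axis, 75 further genes of the pathway were listed by role, of which 65 had a row and 59 were tested in AT. Post-treatment, 3 rose and 6 fell in AT (15.3% of the 59, beside 15.5% of all genes). COL1A1, a collagen that SMAD2 and SMAD3 induce, had means of 4011 ± 1833 CPM before and 7660 ± 3099 CPM after treatment and rose by 1.02 ± 0.297 on the log2 scale (adjusted p = 0.0285 by edgeR). TGIF1, a SMAD corepressor, rose by 0.56 ± 0.102 and SMAD4, the shared partner SMAD, by 0.27 ± 0.074. CDKN2B, a cell cycle inhibitor that TGF-beta induces, fell from 46.9 ± 11.8 to 25.4 ± 7.36 CPM (-0.91 ± 0.201, adjusted p = 0.00856 by edgeR), GDF10 fell by 0.75 on the log2 scale and PMEPA1, a feedback inhibitor of the pathway, by 0.49. Without animal 22130 the calls of COL1A1, PMEPA1, GDF10 and SMAD4 were lost (adjusted p of 0.0857, 0.0750, 0.118 and 0.0638 by edgeR). They were also lost without animals 20275 or 26292 for COL1A1, animals 20275, 21866 or 24849 for PMEPA1, animals 21189, 24849 or 26292 for GDF10 and animal 20456 for SMAD4. Without animal in the model the same 4 calls were lost (adjusted p of 0.0513, 0.0645, 0.149 and 0.0513 by edgeR), with voomWithQualityWeights those of GDF10 and PMEPA1 (adjusted p of 0.0702 and 0.0571). With only the compared time points, and without the pre-treatment library of animal 20275, those of COL1A1 (adjusted p of 0.0768 and 0.0615 by edgeR) and PMEPA1 (0.0692 and 0.0634) were lost. Among the 9 tested SMAD2/3 response genes 1 was DE higher and 3 were DE lower, again beside 15.5% of all genes, with a median of 0.33 beside 0.03 over all genes.

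At washout against post-treatment, 9 of the 59 rose and 13 fell in AT (37.3%, beside 35.4% of all genes). BMPR2, a type II receptor for BMPs and activins, fell from 38.4 ± 6.8 to 9.02 ± 1.5 CPM (-2.11 ± 0.166, adjusted p = 1.98e-07 by edgeR), SKIL, a SMAD corepressor, from 22.3 ± 2.51 to 8.11 ± 5.85 CPM (-1.65 ± 0.253, adjusted p = 9.89e-05 by edgeR), and the stress-induced ligand GDF15 by 1.59 on the log2 scale. AMHR2, the receptor of anti-Müllerian hormone, rose from 1.5 ± 0.69 to 6.52 ± 1.62 CPM (2.16 ± 0.212, adjusted p = 1.83e-06 by edgeR) and the protease gene TLL2 by 0.87 ± 0.292. The call of TLL2 was lost without animals 21189, 22130 or 24849 (adjusted p of 0.0609, 0.0893 and 0.0531 by edgeR) and that of GDF15 without animal 21189 (0.0508). TLL2 also lost it with the library series in the model (adjusted p = 0.0675 by edgeR) and with only the compared time points (0.0625), and GDF15 without animal in the model (adjusted p = 0.0865 by edgeR). Against pre-treatment 6 rose and 6 fell (20.3%, beside 20.5% of all genes), with AMHR2 at 2.37 ± 0.213, SMAD1 at 0.66 ± 0.105 and TLL1 at 0.45 ± 0.147 the largest rises, and BMPR2 at -2.15 ± 0.165, SKIL at -1.69 ± 0.251 and CDKN2B at -0.83 ± 0.210 the largest falls. TLL1 lost its call without animals 20261, 21866, 22130, 23004 or 26292 (adjusted p of 0.0530 to 0.111 by edgeR) and without animal in the model (0.0657).

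In SM, 58 of the listed genes were tested, and 0, 1 and 1 were DE in the order post-treatment, washout against post-treatment and washout against pre-treatment (0%, 1.72% and 1.72%, beside 0%, 0.19% and 0.0634% of all genes). The one was SKIL, which rose at washout from 8.13 ± 3.14 to 25.8 ± 8.35 CPM (1.73 ± 0.211, adjusted p = 0.00812 by edgeR) and against pre-treatment by 1.71 ± 0.225. Without animal 19832 both calls of SKIL in SM were lost (1.65, adjusted p = 0.0591, and 1.59, adjusted p = 0.125, by edgeR), and the second also without animals 20275, 21189 or 22130 and with library size alone (1.63, adjusted p = 0.0756 by edgeR). Between tissues before treatment 11 of 57 were higher and 31 lower in SM (73.7%, beside 77.8% of all genes). The receptor gene BMPR1B (4.19 ± 0.346) and TLL2 (2.05 ± 0.312) were among the furthest above AT, and TGFBR2 (-4.45 ± 0.490), the protease gene PCSK5 (-3.51 ± 0.434) and COL1A1 (-3.33 ± 0.946) the furthest below.

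Genes whose log2 CPM was most like that of a DE gene of the axis over the 27 AT libraries were ranked by Spearman rho among the 12133 genes averaging 1 CPM or more. For INHBA they were KCNE4 (0.89), SHROOM2 (0.87) and COQ8A (0.87), for FST ADH7 (0.78), TMEFF2 (0.76) and STMN2 (0.74), and for ACVR1C C17orf80 (0.87), CREBL2 (0.87) and SRPK2 (0.86).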

How the data were processed

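Stranded mRNA libraries of AT and SM biopsies were sequenced with paired-end reads. Per the methods of the study, the authors aligned reads with STAR to the MacaM rhesus genome and matched macaque genes to human homologs by symbol. The tool that counted reads per gene is not given in the sources used here. The deposited counts were whole numbers of 0 or more whose totals differed between libraries, and were taken as not normalized. Of 51 labelled samples, 3 SM samples without counts were not analysed here. Of 16103 entries, 70 repeats of a gene were dropped, leaving 16033 genes.

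Groups were taken from the labels (tissue, time point, animal). With edgeR 4.0.16 in R 4.3.3, counts were normalized by TMM and tested by robust quasi-likelihood, with 13367 genes in AT, 12617 in SM and 12322 in the joint fits. Log2 CPM used a prior count of 2. INHBA in SM (0 to 80 counts per library) and MSTN in AT (0 to 6) are limited by counting error. Libraries of the same animal come from the labels, and deviated together (median r 0.352 over 25 pairs in AT and 0.279 over 19 in SM, against -0.0641 and -0.109 for other pairs). Alternatives were DESeq2 1.42.0, voomWithQualityWeights of limma 3.58.1 (the authors' test), other normalizations, filters, samples and models, and each animal left out. The earlier quasi-likelihood method of edgeR was added after seeing the data. Figures were drawn with matplotlib 3.10.9 in Python 3.11.15.

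The genes of the axis and all lists were chosen with earlier results of these data known. All genes of the axis were named, and of the pathway lists up to 3 largest rises and 3 largest falls per comparison, taken from DE genes averaging 1 CPM or more. For each gene of the axis DE between time points, the 3 most alike genes were named. A pathway gene that this rule named is not reported here.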

Additional observations from a re-analysis of the deposited data

Results flagged for a closer look

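In 39 groups of 6 to 10 libraries, the highest or lowest level of a gene of the axis was compared with its nearest neighbour as a share of the whole range (Dixon's test at 95%). In 7 groups 1 library stood apart. Chance gives about 1 in 20 only for independent groups of normally distributed values. Here CPM were not log-transformed, and the groups share libraries in which several genes vary together. The number of groups flagged therefore cannot be set against that rate. In AT this was INHBA at washout, at 32.8 CPM in animal 20261 with the next library at 18.9 CPM. In SM pre-treatment MSTN was at 60.7 CPM in animal 22130 (next 29.1), FSTL1 at 705 CPM in animal 24849 (next 228), and ACVR1B lowest in animal 20275 at 10.5 CPM (next 16.6). In SM post-treatment FSTL3 was at 24.8 CPM in animal 21189 (next 10.0). In SM at washout FSTL1 was at 796 CPM in animal 22130 (next 214) and ACVR1C at 19.1 CPM in animal 19832 (next 11.6).

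Among named pathway genes the time course differed between the tissues by the interaction test in edgeR, given as the log2 change in SM minus that in AT. SKIL had means of 25.0, 22.3 and 8.11 CPM in AT and of 8.04, 8.13 and 25.8 CPM in SM in the order of the time points, and differed by 3.42 at washout against post-treatment (adjusted p = 7.29e-08 by edgeR) and by 3.48 against pre-treatment (adjusted p = 1.04e-07 by edgeR). BMPR2 had means of 40.3, 38.4 and 9.02 CPM in AT and of 15, 13.7 and 25.6 CPM in SM, and differed by 2.92 (adjusted p = 1.02e-08 by edgeR) and 2.98 (adjusted p = 1.15e-08 by edgeR). Both contrasts share the washout libraries. In SM alone BMPR2 was not DE in any comparison of time points. The interactions were not fitted with the library series in the model, and in SM series and time point overlap.

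At washout against post-treatment SMURF2, a ubiquitin ligase of the pathway, differed by 1.16 (adjusted p = 0.000132 by edgeR), TLL2 by -1.16 (adjusted p = 0.0401 by edgeR) and SMAD1 by -0.66 (adjusted p = 0.00732 by edgeR). Against pre-treatment PCSK5 differed by 1.67 (adjusted p = 0.0188 by edgeR). TLL2 lost its call without animals 19832, 20275, 20456, 21189, 21866 or 22130, SMAD1 without animal 21189 (-0.44, adjusted p = 0.0558 by edgeR), and PCSK5 without animal 22130 (1.07, adjusted p = 0.104 by edgeR) or with library size alone (1.46, adjusted p = 0.0807 by edgeR).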

How the results depend on the processing

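Outside leave-one-out, 792 of 865 values of genes of the axis and named pathway genes kept their direction and side of the threshold, 20 lost and 14 gained a call and 39 turned; with 1 animal left out these were 803 of 904, 39, 8 and 54. None of the values that turned was DE in the fits reported, and the cause was not tested. The alternative without a fold change limit reused the reported fits within a tissue, so its values could neither turn nor lose a call. Of the counts of DE genes, 71 of 90 stayed within 1.5 times, and 71 of 94 with 1 animal left out. Low counts limit INHBA in SM and MSTN in AT. The earlier edgeR method was chosen after seeing the data.

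Values that turned are log2 changes. In AT they were INHBA at washout against pre-treatment (0.095 with voomWithQualityWeights, 0.098 with library size alone, 0.080 with no replicate block, 0.025 with only the compared time points, 0.091 without the pre-treatment library of animal 20275), ACVR1B at washout against post-treatment (0.046 with library size alone, 0.0052 with only the compared time points) and ACVR1C post-treatment (-0.024 with no block). In SM post-treatment they were INHBA (-0.13 with the earlier edgeR method, -0.20 with DESeq2, -0.27 with voomWithQualityWeights), ACVR1C (0.016 with DESeq2, 0.038 with library size alone, 0.017 with relative log expression factors, 0.0021 without a filter, 0.099 with the series), FSTL1 (-0.86 with voomWithQualityWeights, -0.015 with only the compared time points), FSTL3 (0.088 with library size alone, 0.42 with no block, 0.25 with the series) and FST (0.078 with no block). In SM at washout against post-treatment they were FSTL3 (0.14 with voomWithQualityWeights), FSTL1 (-0.051 with library size alone, -0.63 with no block, -0.27 with the series) and INHBA (-0.32 with no block, -0.37 with the series). Against pre-treatment they were FSTL1 (-0.20 with voomWithQualityWeights, -0.050 with no block, -0.14 with only the compared time points), INHBA (-0.18 with the series) and MSTN (0.12 with the series). Of the tissue differences in change, those post-treatment were FSTL1 (-0.80), FSTL3 (-0.15) and ACVR1B (0.061) with voomWithQualityWeights, and those at washout against post-treatment were FST (-0.22 with library size alone, -0.41 with no block) and FSTL1 (-0.33 with no block).

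The number of DE genes moved in AT post-treatment from 2068 to 1164 without the pre-treatment library of animal 20275. In SM at washout against post-treatment it moved from 24 to 359 with DESeq2, 4 with library size alone, 224 with no block, 2650 with the series and 2 with only the compared time points. In SM at washout against pre-treatment it moved from 8 to 3 with the earlier edgeR method, 179 with DESeq2, 675 with voomWithQualityWeights, 3 with library size alone, 22 with relative log expression factors, 17 with at least 10 counts in every library, 41 with no block and 1355 with the series. For the tissue difference post-treatment it moved from 6 to 75 with DESeq2, 24 with voomWithQualityWeights, 0 with library size alone and 3 with no block, and for that at washout against pre-treatment from 2157 to 3708 with voomWithQualityWeights. Library size alone moved the split of calls, to 2979 higher and 1750 lower from 2352 and 2379 (AT, washout against post-treatment), to 2313 and 590 from 1671 and 1064 (AT, washout against pre-treatment) and to 2181 and 7488 from 4511 and 5079 (SM against AT). With no replicate block, that is without the pairing by animal, AT gave 1420, 3965 and 2422 DE genes in the order used above.

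With 1 animal left out, DE genes in AT post-treatment ranged from 801 to 2209 (801 without animal 22130, 998 without 20275, 1323 without 21189), those at washout in SM from 0 to 34 against post-treatment and from 0 to 22 against pre-treatment, and those for the tissue difference from 0 to 15 post-treatment and from 1425 (without 20275) to 2360 at washout against pre-treatment. In AT, ACVR1C post-treatment ranged from -0.068 to 0.20, ACVR1B at washout against post-treatment from -0.093 to 0.0061, and INHBA against pre-treatment from -0.14 to 0.10. In SM post-treatment INHBA ranged from -0.56 to 0.65, FST from -0.48 to 0.041, FSTL1 from -0.30 to 0.48, FSTL3 from -0.47 to 0.37 and ACVR1C from -0.12 to 0.23. In SM at washout against post-treatment INHBA ranged from -0.12 to 0.86, FSTL1 from -0.58 to 0.64, FSTL3 from -0.62 to 0.19 and ACVR1C from -0.023 to 0.36. Against pre-treatment INHBA ranged from -0.22 to 0.79, MSTN from -0.40 to 0.16, FSTL1 from -0.42 to 0.72 and FSTL3 from -0.66 to 0.046. The tissue difference post-treatment ranged from -0.22 to 0.61 for FSTL1, from -0.19 to 0.61 for FSTL3, from -0.24 to 0.092 for ACVR1B and from -0.24 to 0.25 for ACVR1C. That at washout against post-treatment ranged from -0.21 to 0.53 for FST, from -0.35 to 1.01 for FSTL1 and from -0.74 to 0.19 for FSTL3, and that against pre-treatment from -0.28 to 0.88 for INHBA, from -0.051 to 1.17 for FSTL1 and from -0.54 to 0.28 for FSTL3.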
